A study of Arabidopsis thaliana with 18 samples.

Results

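GAL4-driven expression of YUC4 was compared between a pair of driver lines, J0951/UAS-YUC4 and Q2500/UAS-YUC4, in roots of Arabidopsis thaliana. The comparison took the 3 libraries of each genotype, 6 of the 18 libraries of the series, chosen by their labels. Seedlings were 5 days old, raised on half-strength Murashige and Skoog medium, and RNA came from the cut roots. In each genotype a driver line carries the GAL4 activator, and UAS-YUC4 places the auxin synthesis gene YUC4 behind the sequence that GAL4 binds. The driver line is the labelled difference. The labels do not give the root cells in which either driver is active, whether a line is 1 insertion, or how many plants went into a library. A further 3 libraries of J0951/Col, which hold the J0951 driver without UAS-YUC4, are given beside the results as levels. No library of the Q2500 driver without UAS-YUC4 was analysed here, so the driver line and the response to YUC4 cannot be told apart in Q2500/UAS-YUC4.

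Auxin (indole-3-acetic acid) is made from tryptophan by TAA aminotransferases followed by YUC flavin monooxygenases. It brings TIR1/AFB receptors and Aux/IAA repressors together, the repressors are degraded, and ARF transcription factors are released. Many Aux/IAA, GH3 and SAUR genes are themselves rapidly induced by auxin, and in roots auxin promotes lateral root initiation and root hair elongation while slowing elongation of the main root. The cells in which auxin is made matter, because the hormone is also carried between cells by AUX/LAX and PIN proteins.

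FPKM (fragment counts normalised for transcript length and sequencing depth) were compared as log2(FPKM + 1), and every difference below is J0951/UAS-YUC4 minus Q2500/UAS-YUC4 on that scale, with 3 libraries in each group. A gene is called at a limma adjusted p under 0.05. Of 19260 genes tested, 4857 were called (25.2%): 2315 were higher in J0951/UAS-YUC4 (12%) and 2542 were lower (13.2%). The median difference over all tested genes was -0.011, and the median size among called genes was 0.43. Differences of at least 2-fold were called for 431 genes (2.24%), of which 226 were higher and 205 lower. The libraries of the groups did not overlap in 420 of these and in 4500 of all 4857 called genes, which the call itself makes likely. For 211 of the 226 higher genes and 157 of the 205 lower genes, the J0951/Col mean lay nearer to Q2500/UAS-YUC4 than to J0951/UAS-YUC4. That mean lay outside the range between the means of these groups for 108 of the higher and 112 of the lower genes. Neither the overlap of libraries nor the place of the J0951/Col mean was counted over all tested genes. The count of called genes was 3048 without J0951/UAS-YUC4 replicate 3 and 2831 when the 6 libraries were fitted alone.

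The 3 J0951/UAS-YUC4 libraries correlated with each other at 0.992 to 0.993, and those of Q2500/UAS-YUC4 at 0.981 to 0.992. Replicate 3 of Q2500/UAS-YUC4 stood apart: its closest library was replicate 2 of J0121/UAS-YUC4, another driver line, at a correlation of 0.994. Its YUC4 level was 87.4 FPKM, whereas the J0121/UAS-YUC4 libraries held 727 to 897 FPKM. Of 57 genes at least 2-fold higher in replicates 1 and 2 of Q2500/UAS-YUC4 than in every J0121/UAS-YUC4 library, replicate 3 lay above every J0121/UAS-YUC4 library in 31 and nearer to replicates 1 and 2 in 7. Of 18 genes at least 2-fold lower, replicate 3 lay below every J0121/UAS-YUC4 library in 8 and nearer to replicates 1 and 2 in 5. Replicate 3 took no part in choosing these genes, which by itself moves it away from replicates 1 and 2. Without this library 3521 genes were called, 387 of them at least 2-fold apart. Counts over gene lists are also given without it where they differ, and a list count given without that value did not change. Summed FPKM ran from 656095 to 678093 over the 6 libraries. The 10 most abundant genes took 3.59% to 3.86% of it in J0951/UAS-YUC4 and 4.75% to 5.00% in Q2500/UAS-YUC4.

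YUC4 (AT5G11320) was lower in J0951/UAS-YUC4. It stood at 31.5, 36.6 and 44.6 FPKM there and at 119, 99.3 and 87.4 FPKM in Q2500/UAS-YUC4. J0951/Col held 0.27, 0.15 and 0.30 FPKM. The groups did not overlap, and the mean was 102 ± 15.7 FPKM (SD, n = 3) in Q2500/UAS-YUC4 against 37.6 ± 6.6 in J0951/UAS-YUC4, a ratio of 2.71. The difference was -1.42 (SE 0.49, adjusted p = 0.044), and an exact two-sided permutation test gave p = 0.1, the smallest that 3 against 3 libraries allow. The call was narrow: the adjusted p was between 0.069 and 0.11 without any single library of the 6, and 3.2e-06 when the Q0990/UAS-YUC4 libraries, whose YUC4 ran from 0.29 to 11.95 FPKM, were left out of the fit (an alternative chosen after seeing the data).

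Several auxin-responsive genes had the opposite order to YUC4 and were higher in J0951/UAS-YUC4. IAA5, an Aux/IAA repressor, stood at 4.07, 4.0 and 4.59 FPKM in J0951/UAS-YUC4 and at 1.13, 0.57 and 0.82 FPKM in Q2500/UAS-YUC4, with 0.39, 0.52 and 0.06 in J0951/Col. Its difference was 1.51 (SE 0.20, adjusted p = 4.8e-05). The repressor gene IAA19 stood at 25.1, 25.8 and 20.7 FPKM against 13.2, 10.7 and 10.13, a difference of 1.01 (adjusted p = 1.2e-05). All J0951/UAS-YUC4 values of both genes lay above all Q2500/UAS-YUC4 values. IAA1 stood at 20.3, 20.3 and 19.5 FPKM against 8.89, 9.45 and 11.3 (difference 0.96, adjusted p = 1.1e-05), and IAA6 differed by 1.20 (adjusted p = 0.0001). IAA6 met the rule for testing, 1 FPKM in 3 or more libraries, only through J0951/UAS-YUC4. IAA29 differed by 0.52 (adjusted p = 0.0083), a call that was lost without J0951/UAS-YUC4 replicate 3. GH3 enzymes attach amino acids to auxin and so remove the active hormone. GH3.3 stood at 18.9, 21.4 and 25.2 FPKM in J0951/UAS-YUC4, at 15.1, 10.2 and 8.25 FPKM in Q2500/UAS-YUC4 and at 2.90, 2.43 and 2.80 FPKM in J0951/Col. Its difference was 0.93 (SE 0.19, adjusted p = 0.0016), and GH3.6 differed by 0.85 (adjusted p = 0.00025), GH3.2 by 0.83 and GH3.5 by 0.41, all without overlap. GH3.1 was not called, at 4.04 to 6.03 FPKM against 4.05 to 4.41 (difference 0.14, adjusted p = 0.47).

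**Figure D1:**
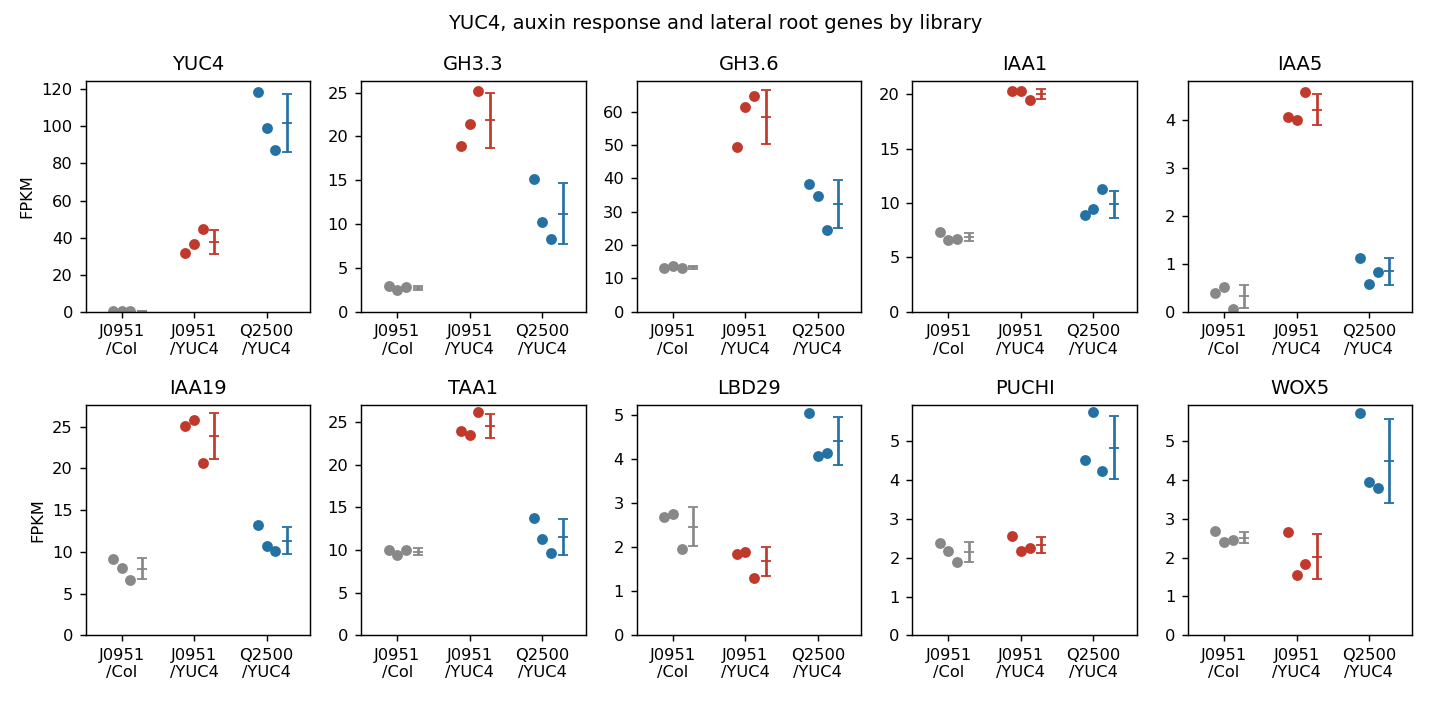
Levels of 10 genes in FPKM (vertical axes, from 0) in the 3 libraries of J0951/Col, J0951/UAS-YUC4 and Q2500/UAS-YUC4 (points), with the mean and SD of each group (bars). YUC4, LBD29, PUCHI and WOX5 were higher in Q2500/UAS-YUC4, while GH3.3, GH3.6, IAA1, IAA5, IAA19 and TAA1 were higher in J0951/UAS-YUC4.

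The promoters of GH3.3, IAA5 and IAA19, auxin-responsive genes of the panel, are shown beside those of AT5G04120 and PRX71, the named genes with the highest and the lowest difference. Auxin itself was not measured. Each line is the 250 bases before the annotated start of the gene in RefSeq's TAIR10.1 assembly, read on the gene's strand, with TGTCTC and TGTCGG, the auxin response element core and its higher-affinity form, in capitals on either strand. GH3.3 lies at chr2:9866563-9866812 (minus strand), IAA5 at chr1:5366498-5366747 (minus), IAA19 at chr3:5263751-5264000 (plus), AT5G04120 at chr5:1119687-1119936 (plus) and PRX71 at chr5:25661008-25661257 (minus).
GH3.3: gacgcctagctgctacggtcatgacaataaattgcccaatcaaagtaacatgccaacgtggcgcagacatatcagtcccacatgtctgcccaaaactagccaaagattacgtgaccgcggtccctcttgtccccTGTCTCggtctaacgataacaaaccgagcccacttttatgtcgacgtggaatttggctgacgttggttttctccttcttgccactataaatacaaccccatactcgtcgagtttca
IAA5: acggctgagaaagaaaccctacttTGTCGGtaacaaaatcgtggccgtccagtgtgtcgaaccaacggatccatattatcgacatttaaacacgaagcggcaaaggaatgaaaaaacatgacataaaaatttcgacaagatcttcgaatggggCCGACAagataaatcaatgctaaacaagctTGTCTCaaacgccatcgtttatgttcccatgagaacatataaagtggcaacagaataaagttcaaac
IAA19: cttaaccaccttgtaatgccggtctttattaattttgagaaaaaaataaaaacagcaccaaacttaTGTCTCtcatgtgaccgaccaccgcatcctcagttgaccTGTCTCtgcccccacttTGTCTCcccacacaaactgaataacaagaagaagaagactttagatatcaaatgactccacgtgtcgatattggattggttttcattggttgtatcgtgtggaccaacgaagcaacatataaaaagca
AT5G04120: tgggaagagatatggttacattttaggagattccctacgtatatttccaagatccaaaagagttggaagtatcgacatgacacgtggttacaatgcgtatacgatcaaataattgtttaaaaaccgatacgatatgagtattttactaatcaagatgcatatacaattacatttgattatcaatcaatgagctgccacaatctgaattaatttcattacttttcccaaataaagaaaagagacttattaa
PRX71: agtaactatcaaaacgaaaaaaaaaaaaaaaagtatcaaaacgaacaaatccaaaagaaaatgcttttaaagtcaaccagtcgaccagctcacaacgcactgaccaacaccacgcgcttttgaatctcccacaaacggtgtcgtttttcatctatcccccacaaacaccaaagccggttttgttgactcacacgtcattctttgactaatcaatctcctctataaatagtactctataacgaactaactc
GH3.3 held 1 TGTCTC, 116 bases before its start. IAA5 held 1 TGTCTC at 67 bases and TGTCGG at 226 and, on the reverse strand, at 97 bases. IAA19 held 3 copies of TGTCTC, at 184, 145 and 128 bases. The windows of AT5G04120 and PRX71 held neither motif. Among 27443 promoters of this length, 10.9% held TGTCTC, 4.16% held TGTCGG and 14.7% held either. A match is a description of the letters and not a measured binding site.

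Among the 27 tested Aux/IAA genes, 9 were higher and 5 lower in J0951/UAS-YUC4, against 12% and 13.2% of all genes, and their median difference was 0.09. Without Q2500/UAS-YUC4 replicate 3, 8 were higher and 3 lower, and without J0951/UAS-YUC4 replicate 3, 3 were lower. Of 10 genes that conjugate or oxidise auxin, 4 were higher and 2 lower. IAMT1, a methyltransferase of auxin, was lower by a difference of -0.67 (adjusted p = 0.0025). Of the 6 SAUR genes tested from 16, 3 were higher and 1 lower. SAUR29 stood at 2.22, 1.93 and 2.63 FPKM against 0.58, 0.19 and 0.78 (difference 1.12, adjusted p = 5.5e-05), and SAUR24 at 1.18, 1.23 and 1.07 FPKM while it was listed at 0 in 2 Q2500/UAS-YUC4 libraries. SAUR24 reached 1 FPKM in no other group, so it was tested only through J0951/UAS-YUC4 and its call is not independent of the filter. With no filter on low values, 12 SAUR genes were called higher, among 5115 called genes of which 51.8% were higher. The genes which that setting adds fell short of 1 FPKM in 3 libraries. Summed SAUR levels were 34.7 to 40.0 FPKM in J0951/UAS-YUC4, 34.6 to 35.3 in Q2500/UAS-YUC4 and 36.3 to 36.7 in J0951/Col. The call of the lower member, SAUR36, was lost under quantile normalization, in the fit of the 6 libraries alone and without J0951/UAS-YUC4 replicate 2 or 3 or Q2500/UAS-YUC4 replicate 1 or 2.

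Genes of auxin synthesis and perception were called at about the share of all genes, 25.0% in both lists against 25.2%. Of 8 tested TAA and YUC genes other than YUC4, 2 were higher and 0 were lower. TAA1, the aminotransferase that acts before YUC enzymes, stood at 23.9, 23.5 and 26.2 FPKM against 13.7, 11.3 and 9.59 (difference 1.04, SE 0.14, adjusted p = 5.4e-05), while J0951/Col held 9.38 to 10.03. YUC8 was higher by 0.41 (adjusted p = 0.019), and this call was lost without J0951/UAS-YUC4 replicate 3 or Q2500/UAS-YUC4 replicate 2. Among 16 receptor and ARF genes, 4 were higher and 0 lower, with AFB5 at a difference of 0.25 (adjusted p = 0.006). That count was 2 without J0951/UAS-YUC4 replicate 3, and 1 gene was lower without Q2500/UAS-YUC4 replicate 1. Of 22 auxin transport genes, 6 were higher and 4 lower (45.5% called). The higher count was 5 without Q2500/UAS-YUC4 replicate 3 and 3 without J0951/UAS-YUC4 replicate 2. The influx carrier gene LAX1 stood at 6.37, 5.60 and 5.83 FPKM against 10.5, 11.1 and 16.3 (difference -0.95, adjusted p = 0.00011), and AUX1 differed by -0.37 (adjusted p = 0.0011). PID and WAG2, kinases that act on PIN efflux carriers, were higher by 0.68 and 0.62.

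Beyond the auxin genes, the 12 highest differences ran from 2.63 to 4.49. AT5G04120, annotated as a phosphoglycerate mutase family protein, stood at 105, 131 and 103 FPKM in J0951/UAS-YUC4 and at 3.54, 4.91 and 3.81 FPKM in Q2500/UAS-YUC4. The ratio of means was 27.7, and J0951/Col lay between the groups at 15.3 to 32.2 FPKM (difference 4.49, SE 0.29, adjusted p = 3.2e-08). ASN1, a glutamine-dependent asparagine synthase, stood at 25.8 ± 5.84 FPKM (SD, n = 3) against 1.54 ± 1.1 (difference 3.45). TCH3, an EF-hand calcium-binding protein, stood at 40.4, 40.2 and 30.9 FPKM against 3.45, 3.96 and 3.02 (difference 3.09, adjusted p = 1.4e-08). ACS9, which makes the ethylene precursor, stood at 8.71, 8.06 and 10.4 FPKM against 1.07, 0.44 and 0.43, with 0.03 to 0.10 in J0951/Col (difference 2.63, adjusted p = 9.9e-09). EXPA12, an expansin, stood at 7.73, 6.57 and 11.3 FPKM against 0.71, 0.27 and 0.14 (difference 2.79). In each of these 5 genes the groups did not overlap, which was a condition for being among the 12. The others were AT3G28320, MLP28, ICS2 (an isochorismate synthase), AT3G28310, RBCS3B, RBCS2B and ZFP2 (a zinc finger protein), with adjusted p from 3.2e-08 to 0.00053. RBCS3B and RBCS2B belong to a family of near-identical copies, so the copy that gave the fragments is uncertain.

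**Figure D2:**
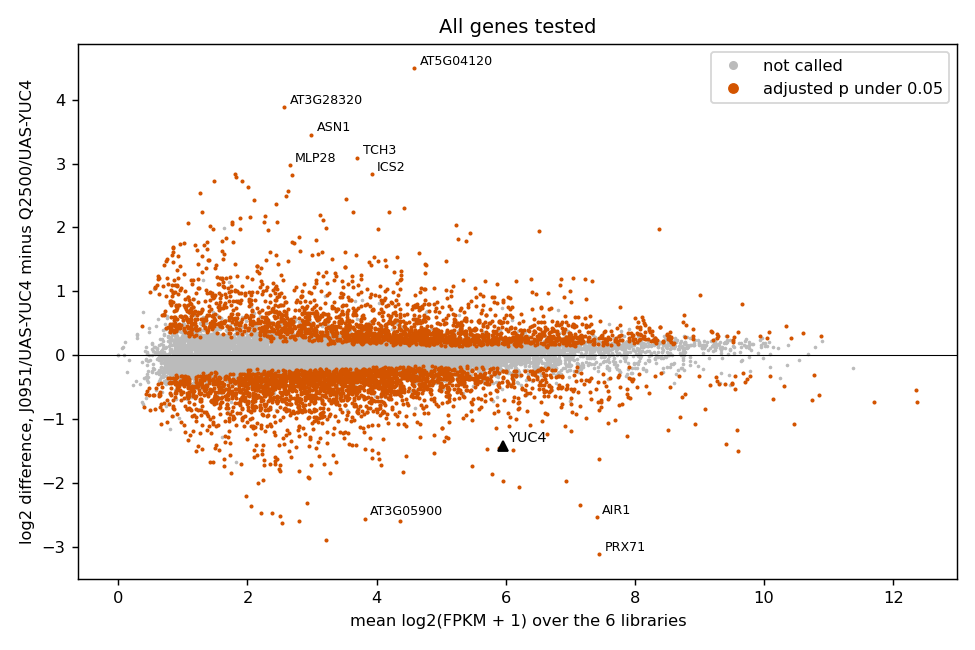
Difference in log2(FPKM + 1), J0951/UAS-YUC4 minus Q2500/UAS-YUC4 (vertical axis), against the mean log2(FPKM + 1) over the 6 libraries (horizontal axis) for 19260 genes. Called genes are orange, YUC4 is a black triangle at -1.42, and 9 of the named genes with high or low differences are labelled, from AT5G04120 at 4.49 to PRX71 at -3.12.

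The 12 lowest differences ran from -3.12 to -1.92 and included abundant transcripts of cell walls and lipid transfer proteins. PRX71 (AT5G64120), a class III peroxidase, stood at 60.7, 58.4 and 56.1 FPKM in J0951/UAS-YUC4 against 434, 601 and 523 FPKM in Q2500/UAS-YUC4 and 576, 632 and 471 FPKM in J0951/Col. Its mean was 8.89 times as high in Q2500/UAS-YUC4 (difference -3.12, SE 0.15, adjusted p = 8.9e-10). AIR1, a lipid transfer-like protein named for its induction by auxin in root cultures, stood at 71.9, 78.6 and 60.0 FPKM against 404, 360 and 471 (difference -2.54, adjusted p = 3.8e-07). AT4G12545, of the lipid transfer protein superfamily, stood at 67.1, 67.5 and 53.0 FPKM against 292, 289 and 388 (difference -2.34). AT2G38390, another peroxidase, stood at 39.0, 37.0 and 30.6 FPKM against 150, 152 and 148 (difference -2.06). For these 4 genes J0951/Col lay nearer to Q2500/UAS-YUC4 than to J0951/UAS-YUC4, at no less than 118 FPKM. For AIR1 and AT2G38390 all J0951/Col values, up to 350 and 133 FPKM, lay below all Q2500/UAS-YUC4 values. The defensin-like genes AT5G33355, AT1G34047 and AT3G59930 were lower by differences of -2.59, -2.31 and -1.97, and AT1G05650, a pectin lyase-like gene, by -2.36. Of 11 genes of the EARLI1 and AIR1 lipid transfer family, 7 were lower and 1 higher, with a median of -0.86. The share called was 72.7%, against 25.2% of all genes, and 6 were lower without Q2500/UAS-YUC4 replicate 3. The call of the higher member was lost in 5 of the 6 fits without 1 library, all but that without Q2500/UAS-YUC4 replicate 1. AT5G46900, which has a near-identical copy in AT5G46890, differed by -1.19.

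**Figure D3:**
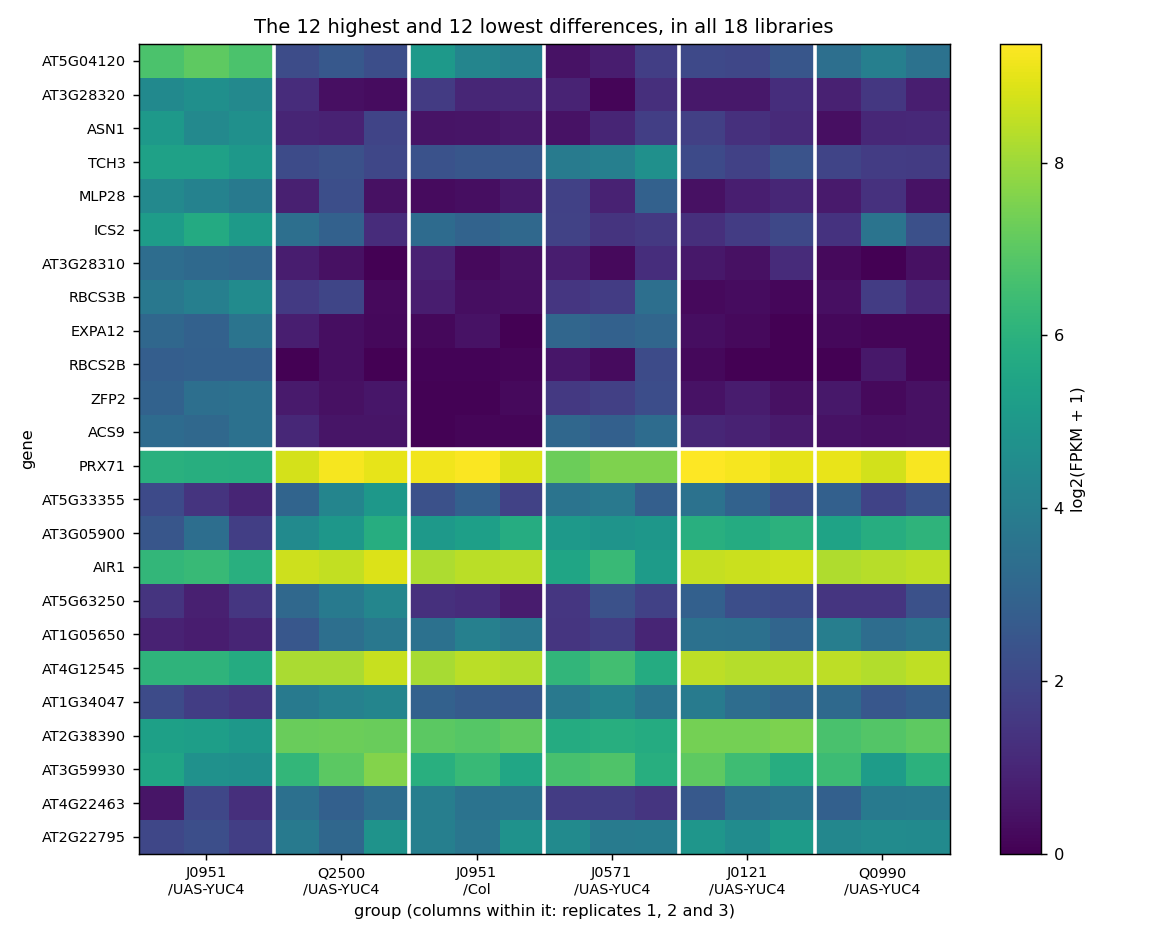
log2(FPKM + 1) (colour) of the genes with the 12 highest (upper block) and 12 lowest (lower block) differences, as rows, in the 18 libraries of the series, as columns grouped by genotype. EXPA12 and ACS9 were also high in J0571/UAS-YUC4, at 6.52 to 7.57 and 6.27 to 9.03 FPKM, and PRX71 was lower in J0571/UAS-YUC4 (152 to 189 FPKM) than in J0951/Col.

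Called genes of lateral root initiation were lower in J0951/UAS-YUC4 in 7 of 8 cases. LBD29, a LOB-domain factor that acts in lateral root initiation, stood at 1.84, 1.89 and 1.3 FPKM against 5.04, 4.06 and 4.14, with 1.95 to 2.75 in J0951/Col (difference -1.02, SE 0.12, adjusted p = 2.6e-05). PUCHI, an AP2-type factor of early primordia, stood at 2.55, 2.17 and 2.25 FPKM against 4.52, 5.75 and 4.24 (difference -0.81, adjusted p = 0.00015). All Q2500/UAS-YUC4 values of both genes lay above the J0951/UAS-YUC4 and J0951/Col values. LBD16 differed by -0.28 (adjusted p = 0.044) and LBD18 was not called (difference -0.30, adjusted p = 0.069). The LBD16 call was lost under quantile normalization, with no filter, with the replicate block, in the fit of the 6 libraries alone and in 5 of the 6 fits without 1 library, all but that without Q2500/UAS-YUC4 replicate 1, and LBD18 was called without the Q0990/UAS-YUC4 libraries (an alternative chosen after seeing the data). Of 17 tested list members, 7 were lower, 1 was higher and 9 were not called, with a median of -0.28. The share called was 47.1%, against 25.2% of all genes, and 6 were lower without Q2500/UAS-YUC4 replicate 3. EXPA17 differed by -1.40, and EXPA14, the higher member, by 0.72. The quiescent centre factor WOX5 stood at 2.66, 1.56 and 1.84 FPKM against 5.71, 3.93 and 3.78 (difference -0.86, adjusted p = 0.00061). Among 14 root meristem genes, 2 were higher and 3 lower, against 12% and 13.2% of all genes. Without J0951/UAS-YUC4 replicate 3, 1 was higher. The 3 lower genes were WOX5, CYCD6;1 (-0.58) and BBM (-0.45), while UPB1, which acts in the transition out of the meristem, was higher by 0.62. Of 20 cell-cycle genes, 11 were lower, 0 were higher and 9 were not called (55.0% called), with a median of -0.24. CYCB2;1 and CYCB2;2, mitotic cyclins, differed by -0.66 and -0.59, the cytokinesis syntaxin KN by -0.57 and CDKB2;1 by -0.37. Fewer cells of a type and less RNA per cell cannot be told apart in whole roots.

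All called genes of the root hair, epidermal patterning and root cap lists were higher in J0951/UAS-YUC4. Of 25 root hair genes, 11 were higher and 0 lower (44.0% called, against 25.2% of all genes), with a median of 0.41. The count was 8 without Q2500/UAS-YUC4 replicate 3 and 7 without J0951/UAS-YUC4 replicate 2, J0951/UAS-YUC4 replicate 3 or Q2500/UAS-YUC4 replicate 2. RHS2 stood at 29.6, 33.8 and 32.7 FPKM against 15.3, 11.8 and 10.2 (difference 1.32, adjusted p = 0.00016), and RHD6, the factor that starts hair growth, differed by 0.57 (adjusted p = 0.00056). CSLD3, a cellulose synthase-like enzyme of hair tips, differed by 0.42, and RSL4, a factor of hair length, by 0.41 (adjusted p = 0.036). The RSL4 call was lost without any single library other than Q2500/UAS-YUC4 replicate 3. Of 10 epidermal patterning genes, 4 were higher (3 without Q2500/UAS-YUC4 replicate 3) and 0 lower (40.0% called). Among the higher were GL2 (0.48), which specifies non-hair cells, and CPC (0.34), which specifies hair cells. Of 8 root cap genes 6 were higher (75.0% called), with a median of 0.64. BRN1, a factor of root cap maturation, stood at 8.44, 10.14 and 11.7 FPKM against 5.19, 5.17 and 4.74 (difference 0.87, adjusted p = 7.8e-05), and J0951/Col held 7.30 to 8.42. PASPA3, a protease of dying root cap cells, differed by 1.09, BRN2 by 0.64 and CEL5 by 0.63. Summed levels of 5 root hair markers ran from 402 to 460 FPKM in J0951/UAS-YUC4 and from 308 to 350 FPKM in Q2500/UAS-YUC4, and those of 4 root cap markers from 24.3 to 30.3 against 17.1 to 19.4. Of these markers, 2 of 5 and 2 of 4 were called higher. PRP3, the most abundant root hair marker, was not called (mean 275 against 208 FPKM, adjusted p = 0.19).

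Called genes of the endodermis and vasculature were mostly lower in J0951/UAS-YUC4. Among 17 suberin genes, 7 were lower and 0 higher (41.2% called, against 25.2% of all genes), with a median of -0.32. FAR1, an enzyme that makes fatty alcohols of suberin, stood at 3.96, 4.16 and 3.23 FPKM against 12.3, 12.1 and 10.8 (difference -1.41, adjusted p = 7e-06), and J0951/Col lay between at 5.95 to 8.70. KCS20 differed by -0.43, MYB93 by -0.77 and ABCG2 by -0.51. Casparian strip genes, which build the barrier of the endodermis, were lower in 5 of 14 and higher in 0 (35.7% called). CASP5 stood at 7.02, 7.83 and 8.58 FPKM against 13.3, 14.0 and 22.8 (difference -0.97, adjusted p = 0.0013), and CASP4 differed by -0.58. The Casparian strip count was 4 without Q2500/UAS-YUC4 replicate 3, 2 without J0951/UAS-YUC4 replicate 1 or 3, and 3 without Q2500/UAS-YUC4 replicate 2. Of 14 phloem genes, 7 were lower and 1 higher (57.1% called), or 6 and 2 without Q2500/UAS-YUC4 replicate 3. CVP2 was at a difference of -0.67 and SEOR1, a sieve element protein, at -0.53. SWEET11, a sucrose exporter, was the higher member: it stood at 24.5, 31.9 and 38.8 FPKM against 6.02, 5.35 and 11.49 (difference 1.97, adjusted p = 0.00018), and J0951/Col held 30.7 to 54.3. Of 16 xylem genes, 3 were lower and 1 higher, and the share called, 25.0%, was that of all genes (25.2%). The higher xylem gene lost its call without J0951/UAS-YUC4 replicate 3 or Q2500/UAS-YUC4 replicate 1. The xylem count of lower genes was 0 without J0951/UAS-YUC4 replicate 2, J0951/UAS-YUC4 replicate 3 or Q2500/UAS-YUC4 replicate 3, 1 without Q2500/UAS-YUC4 replicate 2, and 6 without Q2500/UAS-YUC4 replicate 1. Summed endodermis markers ran from 194 to 212 FPKM against 230 to 271, with 291 to 378 in J0951/Col, and phloem markers from 38.1 to 45.7 against 59.5 to 67.6. Called lower were 3 of 5 endodermis, 3 of 3 phloem and 1 of 3 xylem markers. CASP1, the most abundant endodermis marker, was not called (mean 115 against 135 FPKM, adjusted p = 0.16). Cortex markers overlapped, at 43.4 to 55.3 against 40.3 to 51.0 FPKM. No marker of any root cell type was at 0 in any of the 6 libraries. The part of cell type composition in these differences was not tested.

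**Figure D4:**
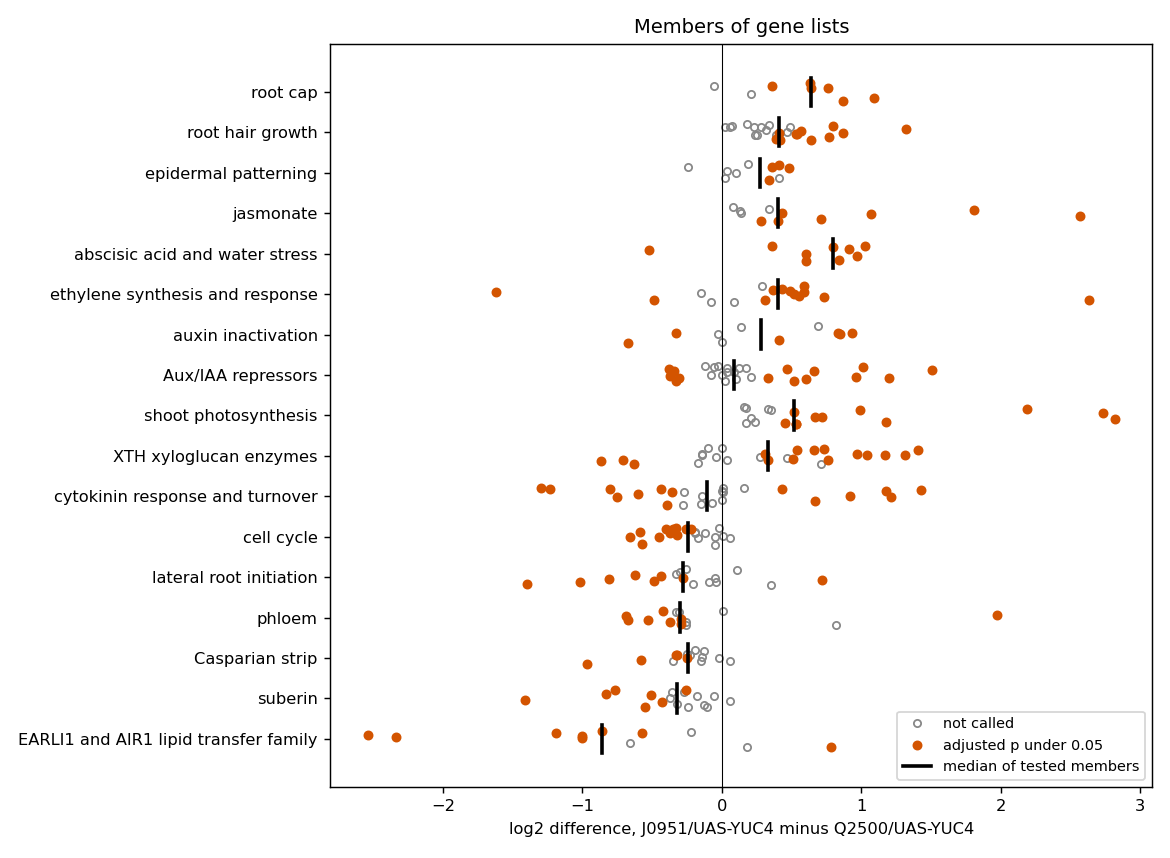
Differences in log2(FPKM + 1), J0951/UAS-YUC4 minus Q2500/UAS-YUC4 (horizontal axis), of the tested members of 17 gene lists (rows; vertical scatter within a row has no meaning), with called members filled and the median of each list as a bar. The median was 0.64 in root cap and 0.41 in root hair genes, and -0.32 in suberin, -0.30 in phloem and -0.24 in cell-cycle genes.

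Cell wall loosening genes and water channels were called in both directions. Of 25 XTH genes, whose enzymes cut and rejoin xyloglucan, 12 were higher and 3 lower, or 9 and 4 without Q2500/UAS-YUC4 replicate 3. The share called was 60.0%, against 25.2% of all genes. XTH5 stood at 40.9, 39.1 and 50.8 FPKM against 17.8, 17.3 and 12.4 (difference 1.41, adjusted p = 3.4e-06), XTH19 differed by 0.76 and TCH4 by 1.31, whereas XTH21 differed by -0.71. Of 16 alpha-expansins, 7 were higher and 2 lower (56.2% called). Without Q2500/UAS-YUC4 replicate 3, 6 were higher and 5 lower, and without J0951/UAS-YUC4 replicate 2, 1 was lower. EXPA11 stood at 50.8, 47.9 and 49.9 FPKM against 24.5, 25.2 and 22.9 (difference 1.00, adjusted p = 1.6e-07), and EXPA9 differed by 0.75. Of 24 aquaporins, 8 were lower and 3 higher, or 6 and 2 without Q2500/UAS-YUC4 replicate 3. Of all genes, 13.2% were lower and 12% higher, so the share of higher aquaporins was near that of all genes. The higher count was 1 without J0951/UAS-YUC4 replicate 2 or 3, and the fit of the 6 libraries alone gave 5 lower and 1 higher. TIP2;3, a channel of the vacuole membrane, stood at 37.2, 33.4 and 34.6 FPKM against 68.0, 98.4 and 137, and J0951/Col lay above both at 209 to 264 (difference -1.45, adjusted p = 2.3e-05). PIP2;4 differed by -0.96, and PIP2E was higher by 1.58.

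Ethylene and cytokinin genes were called in both directions. Of 16 ethylene genes, 10 were higher and 2 lower (75.0% called, against 25.2% of all genes), with a median of 0.40. The higher count was 8 without Q2500/UAS-YUC4 replicate 3 and 6 without J0951/UAS-YUC4 replicate 2. ACO4, an oxidase of the last step of ethylene synthesis, was higher by 0.59 (adjusted p = 0.00011) and EBF2, a feedback F-box gene of ethylene signalling, by 0.52, while ACO3 was lower, at 10.3, 7.26 and 7.82 FPKM against 20.7, 21.7 and 47.4 (difference -1.62). Cytokinin genes were split, with 6 of 24 higher and 8 lower (58.3% called). ARR3, a type-A response regulator, stood at 42.9, 42.3 and 43.5 FPKM against 19.0, 14.2 and 13.4 (difference 1.43, adjusted p = 3.3e-06). ARR7, another type-A regulator, had the opposite order, at 5.19, 3.70 and 4.85 FPKM against 14.7, 13.9 and 9.85 (difference -1.30, adjusted p = 1.2e-05). ARR15 was higher by 1.21 and CKX3, which degrades cytokinin, by 0.92. The count of lower cytokinin genes was 4 without J0951/UAS-YUC4 replicate 3, and without Q2500/UAS-YUC4 replicate 3 5 were higher and 5 lower.

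Called stress hormone genes were mostly higher in J0951/UAS-YUC4. Of 11 jasmonate genes, 7 were higher and 0 lower (63.6% called, against 25.2% of all genes), with a median of 0.40. VSP2, a vegetative storage protein gene induced by jasmonate, stood at 14.0, 17.1 and 11.4 FPKM against 2.11, 2.61 and 0.44 (difference 2.57, adjusted p = 0.00012), and CYP94C1, which oxidises the active jasmonate, differed by 1.07. JAZ10, a repressor of the pathway, differed by 0.71 and AOS, a synthesis enzyme, by 0.40. Of 9 abscisic acid genes, 8 were higher and 1 lower (100% called). ABI1, a phosphatase that restrains the response, stood at 50.4, 57.0 and 59.1 FPKM against 30.0, 32.7 and 31.4 (difference 0.80, adjusted p = 1.8e-06), and P5CS1, of proline synthesis, differed by 0.91. The higher count was 5 without Q2500/UAS-YUC4 replicate 3 or J0951/UAS-YUC4 replicate 2, 4 without J0951/UAS-YUC4 replicate 3, and 3 in the fit of the 6 libraries alone. The lower member lost its call without J0951/UAS-YUC4 replicate 1 or 3 or Q2500/UAS-YUC4 replicate 2 or 3. Among 5 salicylate and defence genes, 3 were higher and 0 lower (60.0% called), with PAD4 at 0.44 and ICS1 at 0.33. Without Q2500/UAS-YUC4 replicate 1, 1 was lower.

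Phosphate, nitrate and sugar genes included single large differences. Of 13 phosphate starvation genes, 6 were higher and 1 lower (53.8% called), or 5 and 0 without Q2500/UAS-YUC4 replicate 3. SPX1, a phosphate sensor, stood at 21.1, 23.0 and 19.7 FPKM against 7.35, 6.90 and 5.28 (difference 1.58, adjusted p = 1.2e-06), PAP17, an acid phosphatase, differed by 1.38, and RNS1, a ribonuclease, by 2.43. The call of the lower member was lost without J0951/UAS-YUC4 replicate 2 or 3 or Q2500/UAS-YUC4 replicate 2 or 3. Of 13 nitrate genes, 2 were higher and 0 lower (15.4% called, against 25.2% of all genes), and both encode nitrate reductases. NIA1 stood at 85.5, 83.7 and 82.5 FPKM against 36.6, 17.8 and 15.3 (difference 1.91, adjusted p = 0.0012), and NIA2 differed by 1.00. Without Q2500/UAS-YUC4 replicate 1, 4 nitrate genes were higher. Of 11 sugar starvation genes, ASN1 and BGLU30 (difference 1.72) were higher and 0 were lower, while 2 were lower without Q2500/UAS-YUC4 replicate 1. The share called was 18.2%, against 25.2% of all genes. BGLU30 reached 1 FPKM in no group other than J0951/UAS-YUC4, so it was tested only through that group.

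Genes of photosynthesis were counted apart for the nucleus and the plastid. Of 18 nuclear photosynthesis genes, 11 were higher, 0 were lower and 7 were not called, with a median of 0.52. The share called was 61.1%, against 25.2% of all genes. LHCA2, a light-harvesting protein gene, stood at 31.3, 34.2 and 40.1 FPKM against 18.5, 20.2 and 13.4 (difference 0.99, adjusted p = 0.00021). LHCB1.1, which has near-identical copies, stood at 5.59, 5.82 and 23.2 FPKM against 1.27, 1.99 and 0.70 (difference 2.19). The count was 4 without Q2500/UAS-YUC4 replicate 3 or J0951/UAS-YUC4 replicate 3, and 7 without J0951/UAS-YUC4 replicate 2 or in the fit of the 6 libraries alone. Summed shoot markers overlapped between the groups, at 135 to 202 FPKM against 92.8 to 157, and 2 of 4 tested markers were called higher. These were LHCB3 (difference 0.67, adjusted p = 0.026), whose libraries did not overlap, and LHCB2.1 (difference 1.18, adjusted p = 0.024), whose libraries did. Whether shoot tissue was cut with the roots was not tested. Of 36 tested plastid-encoded genes, 15 were lower (11 without Q2500/UAS-YUC4 replicate 3), 1 was higher and 20 were not called (44.4% called), with a median of -0.57. The share of plastid-encoded genes in summed FPKM was 0.0267% to 0.0361% against 0.0373% to 0.0719%. The call of the higher plastid gene was lost in 5 of the 6 fits without 1 library, all but that without Q2500/UAS-YUC4 replicate 1, where 4 were higher.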

How the data were processed

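RNA from roots was measured in 18 libraries, of which 6 are compared here. The authors deposited FPKM values for 25202 loci, rounded to 2 decimals. Per the labels' protocols, random primers made the complementary DNA and Illumina instruments read it. The sources used here name no aligner, annotation, genome build or strand setting, so overlapping genes and near-identical copies are uncertain. Absolute depth is unknown, so counting intervals cannot be given. The smallest non-zero values of low genes ran, as library medians, from 0.988 to 1.03 of their mean over libraries. Only values close to the lowest of each gene were kept, so this range cannot show whether depths were alike. No value column was left out (0 columns).

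FPKM were transformed to log2(FPKM + 1), which understates the differences of low genes. Genes that reached 1 FPKM in 3 or more libraries (19260) entered the test in limma 3.58.1 (R 4.3.3) with 1 mean per genotype, all 18 libraries sharing the estimate of spread (12 residual degrees of freedom), a mean trend and Benjamini-Hochberg adjustment over all genes. Some genes met this FPKM rule only through their J0951/UAS-YUC4 libraries, among them IAA6, IAA29, SAUR24, CYP71A12, BGLU30, RBCS2B and AT3G28310. Such a gene entered the test only because it was expressed there, so its higher call is not independent of the filter. The median SE was 0.0994. The procedure was run on simulated data with noise drawn independently for each gene and library. That run cannot show how shifts shared by many genes of a library affect the calls. Nothing says the 3 libraries of a group came from separate cultures, so p-values reflect library-to-library spread, possibly technical.

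The text names YUC4, a panel of auxin genes, the 12 highest and 12 lowest called differences whose libraries do not overlap and whose higher mean is at least 5 FPKM, and up to 4 called members of each list with the smallest adjusted p. The lists, members and rules were chosen with earlier results of these data known, and no list test was run. Symbols and promoter sequences came from the RefSeq TAIR10.1 genome and annotation, which matched 25000 nuclear loci. Of 463 list entries, 459 were in the table. Alternatives varied the pseudocount, filter, scaling, libraries fitted, variance trend and replicate block, and left out each library.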

Additional observations from a re-analysis of the deposited data

How the results depend on the processing

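Of 4857 called genes, a fit of the 6 libraries alone gave 2831, and leaving out 1 library gave 3048 to 5727. The other alternatives gave 3956 to 5115. The count of called genes at least 2-fold apart (431) was 761 with a pseudocount of 0.1 and 148 with a pseudocount of 5, and 376 to 548 without 1 library. The YUC4 difference of -1.42 kept its sign under every alternative run. It was -1.44 (adjusted p = 0.16) with a pseudocount of 0.1, -1.42 (0.07) with no filter and -1.42 (0.052) with no mean trend, and it ran from -1.55 to -1.30 without 1 library. Quantile normalization moved the median difference of all tested genes from -0.0111 to 0.0075. Of 141 named genes other than YUC4, 0 changed direction under any alternative. Calls changed for 15 of them in the fit of the 6 libraries alone and for 6 with no filter, and for 5 to 21 without 1 library.

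The replicate numbers did not pair the samples: the correlations of the deviations of same-numbered libraries from their group means were -0.143, 0.098 and -0.243. With the replicate block, 4850 genes were called, 434 of them at least 2-fold apart, and YUC4 differed by -1.42 (adjusted p = 0.046). Absolute depth is unknown, so a value listed at 0 has no stated upper limit. With 3 libraries a group an exact permutation test cannot go below 0.1.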

Other observations

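Genes of glucosinolate synthesis, which makes sulfur compounds of defence, and of camalexin synthesis differed in single members. CYP71A12, an enzyme of camalexin and indole carbonyl nitrile synthesis, stood at 5.60, 3.74 and 3.92 FPKM in J0951/UAS-YUC4 and at 0.10, 0.23 and 0.06 FPKM in Q2500/UAS-YUC4 (difference 2.25, limma adjusted p = 1.4e-08), and the groups did not overlap. CYP71A12 reached 1 FPKM in no other group, so it was tested only through J0951/UAS-YUC4. CYP79B2 and CYP79B3, which both turn tryptophan into indole-3-acetaldoxime, had opposite orders, at differences of 0.48 (adjusted p = 0.017) and -0.52 (adjusted p = 0.012). The CYP79B2 call was lost without J0951/UAS-YUC4 replicate 2 or Q2500/UAS-YUC4 replicate 2 or 3, and that of CYP79B3 without J0951/UAS-YUC4 replicate 3 or Q2500/UAS-YUC4 replicate 2. Of 13 indole glucosinolate and camalexin genes, 4 were higher and 2 lower (46.2% called, against 25.2% of all genes). The higher count was 1 without Q2500/UAS-YUC4 replicate 3 and 2 without J0951/UAS-YUC4 replicate 1 or 2. The lower count was 1 without J0951/UAS-YUC4 replicate 1 or Q2500/UAS-YUC4 replicate 1, and 0 without J0951/UAS-YUC4 replicate 3 or Q2500/UAS-YUC4 replicate 2. Of 13 aliphatic glucosinolate genes, 4 were higher and 0 lower (30.8% called), with CYP83A1 at 50.4, 34.4 and 41.8 FPKM against 30.0, 14.5 and 17.2 (difference 1.05, adjusted p = 0.0091). That count was 1 without J0951/UAS-YUC4 replicate 1 or Q2500/UAS-YUC4 replicate 3, and 0 without Q2500/UAS-YUC4 replicate 2.

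Of 16 iron uptake genes, BHLH38 and BHLH39, which encode factors of the iron deficiency response, were lower, by differences of -1.11 (adjusted p = 0.039) and -1.12 (adjusted p = 0.033). The share, 12.5%, was close to the 13.2% of all genes called lower. Both calls were lost in 5 of the 6 fits without 1 library, all but that without Q2500/UAS-YUC4 replicate 1. The count was 0 without J0951/UAS-YUC4 replicate 2 or Q2500/UAS-YUC4 replicate 2 or 3, 1 without J0951/UAS-YUC4 replicate 1 or 3, and 4 without Q2500/UAS-YUC4 replicate 1. Of 7 flavonoid genes, limma called 0 in either direction, and 2 were lower without Q2500/UAS-YUC4 replicate 3. Of 18 tested mitochondrion-encoded genes, 2 were higher and 0 lower, or 1 higher without J0951/UAS-YUC4 replicate 3 or Q2500/UAS-YUC4 replicate 2. The share called was 11.1%, against 25.2% of all genes.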
